A study of Oryza sativa with 6 samples.

Results

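The diterpene cyclases of rice were read by 9 probe sets of 8 genes, out of 57258 probe sets tested, in shoot tips of *Osrdr1* and of its sibling WT, with 3 arrays for each genotype. A probe set was taken as a member when its single gene is named CPS, KS or KSL with a number, either in the annotation of the array or, through symbols and synonyms with or without Os, in a table of rice genes. That table holds 11 such genes, and for KSL2, KSL3 and KSL6 no probe set was matched. KSL8 and KSL11 could not be matched by name, so they are not covered. Both genotypes are of the rice variety Hitomebore and descend from 1 line that was heterozygous for an insertion of the retrotransposon Tos17 in *OsRDR1*, which encodes an RNA-dependent RNA polymerase. *Osrdr1* is homozygous for the insertion, and its WT carries no insertion in that gene, so the mutant rests on 1 insertion event. No gene was added to either genotype and no agent was applied. Seeds were left to germinate for 2 days in darkness at 28 °C in distilled water. The seedlings were harvested about 48 h after their move to a greenhouse kept at 26 °C, where days had 16 h of light and nights lasted 8 h.

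Diterpene cyclases stand at a fork of plant metabolism. Copalyl diphosphate synthases (CPS) fold the plastid precursor geranylgeranyl diphosphate into ent- or syn-copalyl diphosphate, and kaurene synthase (KS) and its relatives (KSL, kaurene synthase-like) close further rings. The products of CPS1 and KS1 lead to gibberellins, hormones that drive the growth of shoots. Those of the other measured members lead to momilactones, phytocassanes, oryzalexins and related diterpenoids, which rice makes largely as phytoalexins, defence compounds induced by fungal attack or ultraviolet light. CPS2 makes ent- and CPS4 syn-copalyl diphosphate for this branch.

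By this division, 2 probe sets belong to the gibberellin branch and 7 to the phytoalexin branch, 2 of which read KSL7. Values are log2 intensities as the authors normalized them. Since probes bind unequally, a value is compared between arrays for 1 probe set, and not between probe sets as an amount of transcript. The middle of each array lay between 4.87 and 4.96. As a guide to the bottom of the scale, 17 control probe sets named Tag, which are not designed on rice genes, gave 3.44 to 5.14 over the 6 arrays, with a median of 3.86. Differences are *Osrdr1* minus WT on the log2 scale, and adjusted p-values are from limma with Benjamini-Hochberg adjustment over all probe sets tested.

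The 2 gibberellin cyclases were both above the middle of all 6 arrays, while 6 of the 7 phytoalexin probe sets were below it on all 6, as were 45.9% of all probe sets. No cyclase passed the test between genotypes. At an adjusted p under 0.05, 0 of 9 were called, where 2.08% of all probe sets were, and at an unadjusted p under 0.05 there were also 0 of 9, where 14.3% of all probe sets passed. The adjusted p-values of the members ran from 0.367 to 0.874. The difference was positive for 4 and negative for 5 members, with a median of -0.08, beside -0.01 over all probe sets.

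**Figure D1:**
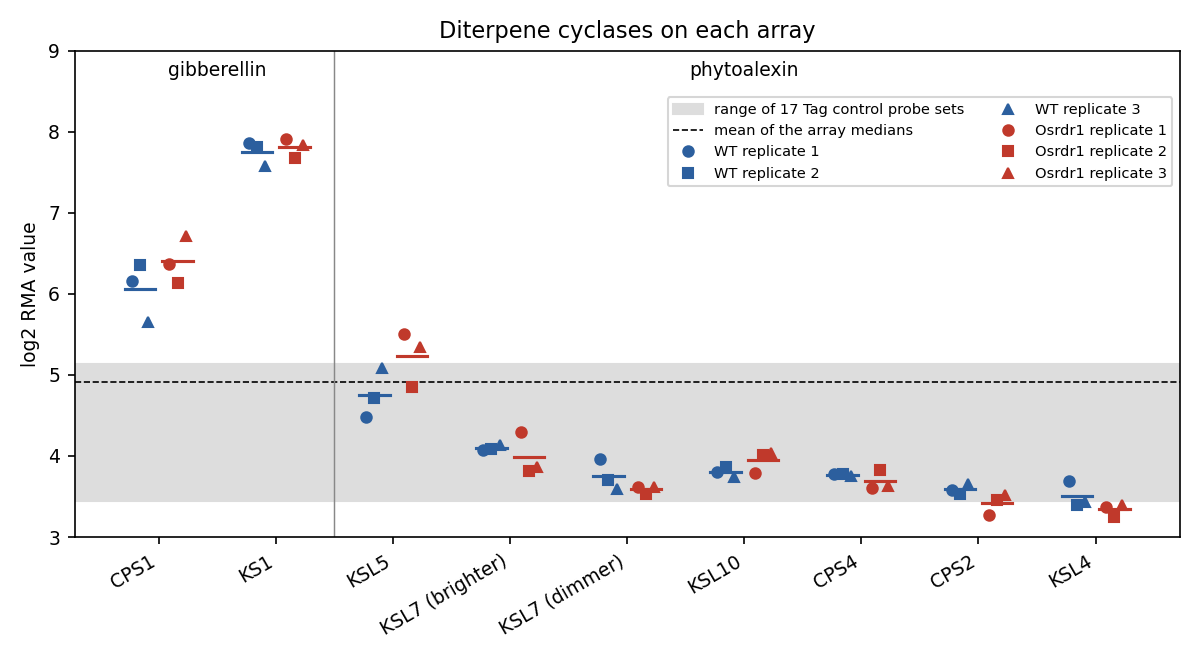
Log2 value of each cyclase probe set (vertical axis) on each array, with WT in blue, *Osrdr1* in red and a horizontal bar at the mean of each genotype; the grey band is the range of the 17 Tag control probe sets and the dashed line the mean of the array medians. CPS1 and KS1 lie above the band on all 6 arrays, KSL5 straddles its upper edge, and the other probe sets lie within or below it.

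CPS1, the ent-copalyl diphosphate synthase that commits the precursor to gibberellins, had log2 values of 6.37, 6.13 and 6.72 in *Osrdr1* and 6.16, 6.36 and 5.65 in WT. The WT replicate 3 was the lowest and the *Osrdr1* replicate 3 the highest, and the genotypes overlapped. The means were 6.41 ± 0.30 in *Osrdr1* and 6.06 ± 0.37 in WT (SD, n = 3), a difference of 0.35 with a standard error of 0.21 and a 95% interval from -0.15 to 0.85 (adjusted p = 0.548 from limma). Without the WT replicate 3 the difference was 0.15.

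KS1, the kaurene synthase that acts on the product of CPS1, varied less between arrays. Its values were 7.91, 7.68 and 7.84 in *Osrdr1* and 7.86, 7.81 and 7.58 in WT. Again the WT replicate 3 was lowest, and the genotypes overlapped over most of their range. The difference was 0.06, with a standard error of 0.10 and a 95% interval from -0.19 to 0.30 (adjusted p = 0.874 from limma), and it turned to -0.03 without the WT replicate 3. The name of its probe set ends in _s_at, which marks probes shared by several transcripts, so related transcripts may add to this value.

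Within each genotype, CPS1 and KS1 were both lowest on the array with the highest signal of ribosomal RNA. The 28S probe set had 10.39, 11.22 and 10.28 in *Osrdr1* and 9.41, 9.44 and 11.51 in WT, and the 25S probe set had 9.22, 10.36 and 8.60 in *Osrdr1* and 8.27, 8.50 and 10.58 in WT. The highest arrays were thus the *Osrdr1* replicate 2 and the WT replicate 3. The 18S probe set, with 11.90, 12.47 and 12.36 in *Osrdr1* and 9.85, 10.19 and 13.06 in WT, was highest on the same arrays. In the 28S, 25S and 18S probe sets alike, all *Osrdr1* arrays lay above the WT replicates 1 and 2. The spiked bacterial control bioB does not come from the plants. It too was highest on the *Osrdr1* replicate 2 and the WT replicate 3, at 9.27 and 9.84, beside 8.72 to 9.07 elsewhere. The part of this in the values of CPS1 and KS1 was not tested, and how many of all probe sets share their pattern was not counted. Of the phytoalexin probe sets, only the dimmer one of KSL7 was lowest in each genotype on the same arrays. KSL5 and the brighter probe set of KSL7 were lowest in *Osrdr1* on its replicate 2 but highest in WT on its replicate 3.

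**Figure D2:**
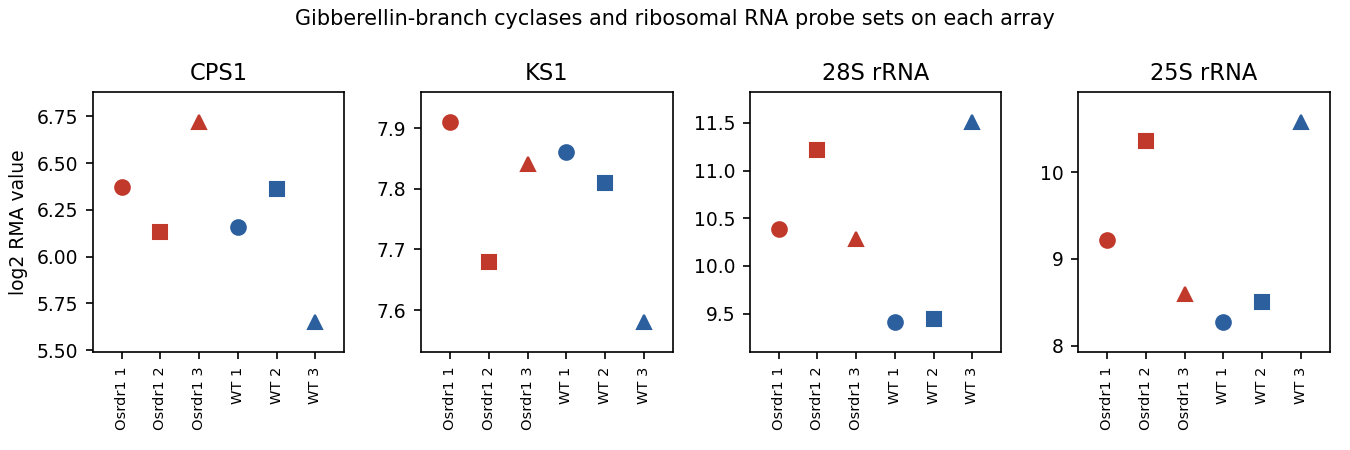
Log2 value (vertical axis, with its own scale in each panel) of CPS1, KS1 and the 28S and 25S ribosomal RNA probe sets on each array, *Osrdr1* in red and WT in blue. In each genotype the array with the highest ribosomal RNA, *Osrdr1* replicate 2 or WT replicate 3, has the lowest CPS1 and KS1.

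Of the phytoalexin cyclases, KSL5 had the largest difference in size of all members. KSL5 acts on ent-copalyl diphosphate, and it had log2 values of 5.50, 4.85 and 5.34 in *Osrdr1* and 4.48, 4.71 and 5.08 in WT. It stood above the highest Tag probe set of the same array on 3 of the 6 arrays, the *Osrdr1* replicates 1 and 3 and the WT replicate 3. On the WT replicate 3 that Tag probe set had 5.01, and the 5.08 of KSL5 lay below 5.14, the highest Tag value over all arrays. The *Osrdr1* replicate 2 lay within the range of WT. The means were 5.23 ± 0.34 in *Osrdr1* and 4.76 ± 0.30 in WT (SD, n = 3). The difference was 0.47 with a standard error of 0.20 and a 95% interval from -0.01 to 0.95 (adjusted p = 0.367 from limma, and 0.0543 before adjustment).

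A single alternative called a member. With arrays weighted by their agreement with the rest, which gave the WT replicate 3 a weight of 0.294 and the WT replicate 2 one of 2.21, the difference of KSL5 was 0.66 (adjusted p = 0.0471 from limma). In the same fit 3743 probe sets were called, beside 1191 with equal weights. Leaving out 1 array at a time gave 0.33 to 0.66, with adjusted p-values of 0.177 or more.

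The other 6 phytoalexin probe sets lay between 3.25 and 4.29 and on no array exceeded the highest Tag probe set. At this level a value cannot be told from background, so a transcript present at a low level may be missed. Their differences ran from -0.17 to 0.14, and their 95% intervals lay within -0.41 and 0.36. With 1 array left out, the differences ran from -0.22 to -0.10 for CPS2, from -0.15 to -0.04 for CPS4, from -0.22 to -0.07 for KSL4 and from 0.10 to 0.22 for KSL10. Those of the brighter and the dimmer probe set of KSL7 ran from -0.25 to -0.01 and from -0.24 to -0.05.

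CPS2, the ent-copalyl diphosphate synthase of the phytoalexin branch, had log2 values of 3.27, 3.46 and 3.52 in *Osrdr1* and 3.58, 3.53 and 3.65 in WT. All *Osrdr1* arrays were below all WT arrays, the nearest being 3.52 in the *Osrdr1* replicate 3 and 3.53 in the WT replicate 2. It was the single member of 9 with no overlap, and 8.83% of all probe sets lay without overlap in this direction. The difference of CPS2 was -0.17, with a standard error of 0.09 (adjusted p = 0.465 from limma).

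CPS4 and KSL4 act in sequence towards momilactones, CPS4 making syn-copalyl diphosphate and KSL4 closing it to syn-pimaradiene. CPS4 had 3.61, 3.83 and 3.63 in *Osrdr1* and 3.78, 3.78 and 3.75 in WT, a difference of -0.08 (adjusted p = 0.770 from limma). KSL4 had 3.37, 3.25 and 3.40 in *Osrdr1* and 3.69, 3.40 and 3.43 in WT, a difference of -0.17 (adjusted p = 0.549 from limma). For both the genotypes overlapped or touched, and the highest KSL4 value was that of the WT replicate 1.

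KSL7 makes the ent-cassadiene of phytocassanes and was read by 2 probe sets. The brighter had log2 values of 4.29, 3.82 and 3.87 in *Osrdr1* and 4.07, 4.09 and 4.13 in WT, and the dimmer had 3.62, 3.53 and 3.62 in *Osrdr1* and 3.96, 3.70 and 3.59 in WT. The *Osrdr1* replicate 1 was the highest array for the brighter and the WT replicate 1 for the dimmer, so the probe sets did not rank the arrays alike. Their differences were -0.10 and -0.16 (adjusted p = 0.803 and 0.597 from limma).

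KSL10, which makes ent-sandaracopimaradiene for oryzalexins, had log2 values of 3.79, 4.01 and 4.04 in *Osrdr1* and 3.80, 3.87 and 3.74 in WT. The *Osrdr1* replicate 1 lay among the WT arrays and the other *Osrdr1* arrays above them. The difference was 0.14 with a standard error of 0.09 (adjusted p = 0.576 from limma).

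The branches were also set against each other within each array, as the mean of the 6 phytoalexin genes, with KSL7 by its brighter probe set, minus the mean of the 2 gibberellin genes, which is a description of these probe sets and was not tested. This value was -3.16, -3.04 and -3.32 in *Osrdr1* and -3.11, -3.19 and -2.65 in WT. The WT replicate 3, with its low CPS1 and KS1, stood apart, and the other arrays lay close together. The genotypes differed by -0.19 with all arrays and by -0.02 without the WT replicate 3.

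Several of the phytoalexin cyclases lie in gene clusters beside the cytochromes P450 that modify their products. In the order of the gene table, chromosome 2 holds KSL7, CPS2, KSL5 and KSL6 with CYP76M and CYP71Z genes among and beside them, and 9 of the 10 genes from CYP76M8 to LOC4329732 were measured. No gene of this stretch was called, and the differences ran from -0.34 at LOC4329723, whose function the tables do not give, to 0.47 at KSL5. KSL5 lies between CPS2 and KSL6, and the nearest measured genes on either side had differences of -0.17 (CPS2) and -0.12 (CYP76M6). On chromosome 4, CPS4 and KSL4 stand with CYP99A2, CYP99A3 and OsMAS, the momilactone A synthase, and 7 of 9 genes were measured. Here too 0 were called, and the differences ran from -0.17 at KSL4 to 0.11 at OsMAS.

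KS1 lies elsewhere on chromosome 4, between KSL3 and KSL2. Of the 7 genes of this stretch, KS1 included, 4 were measured and 0 called. LOC4336957, whose function the tables do not give, had 5.85, 5.85 and 6.02 in *Osrdr1* and 5.61, 5.50 and 5.16 in WT, a difference of 0.48 (adjusted p = 0.119 from limma). It was called with weighted arrays, at 0.40 (adjusted p = 0.0432 from limma). The remaining measured members, CPS1 on chromosome 2 and KSL10 on chromosome 12, have no other cyclase within 10 genes.

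**Figure D3:**
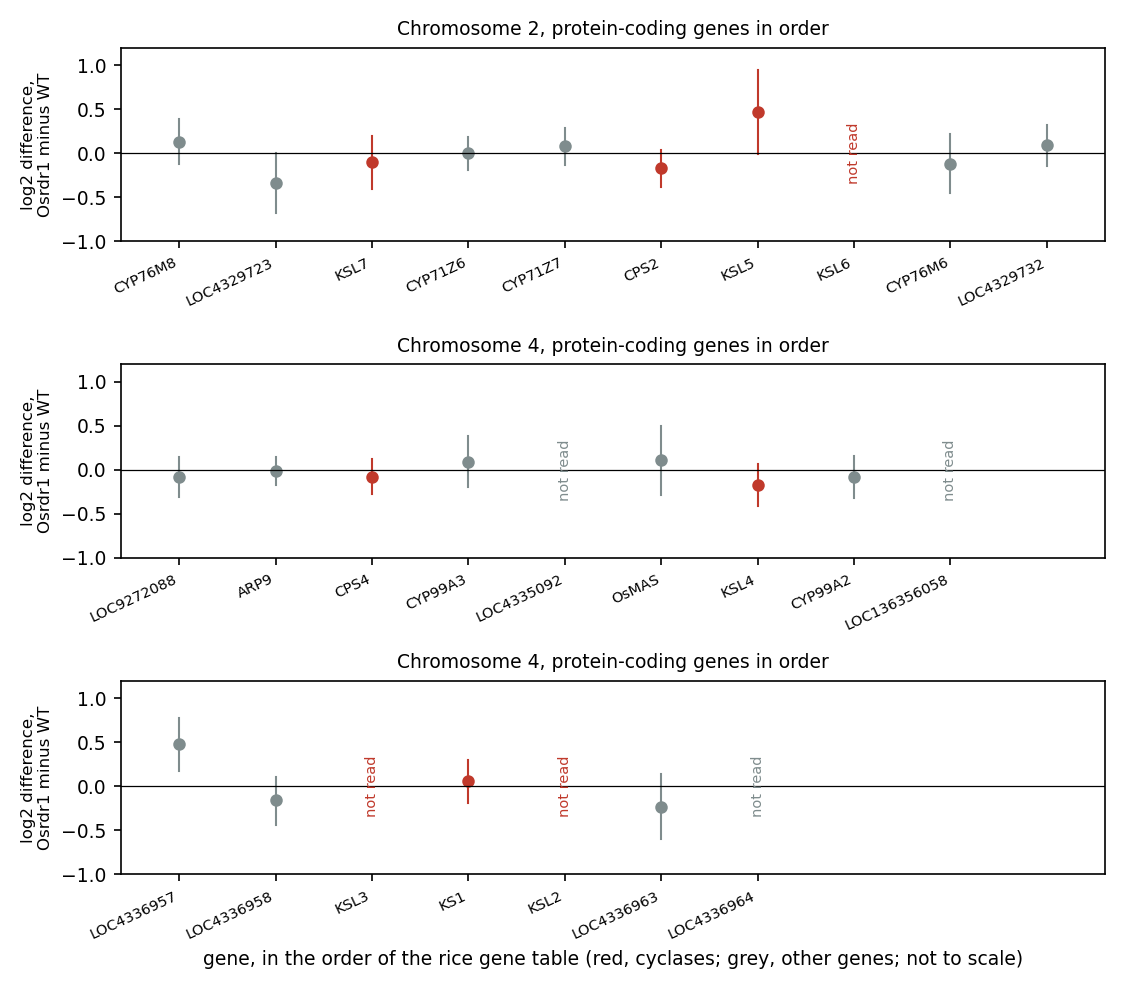
Difference between the genotypes (log2, *Osrdr1* minus WT, vertical axis) with its 95% interval from limma for the genes around 3 groups of cyclases, in gene order along the chromosome and not to scale; cyclases are red, other genes grey, and genes without a probe set are marked as not read. The points stay between -0.34 and 0.48.

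The steps that follow the cyclases were counted next, with the brightest probe set standing for each gene. By gene, 3.44% of all 17905 measured genes were called higher in *Osrdr1* and 1.13% lower. Of 5 genes of gibberellin synthesis after the cyclases, 0 were called, with a median difference of 0.07, beside 0.00 over all genes. GA3ox2, planned for this list, was not matched by name, so its step was not read. KO2, the kaurene oxidase that takes over from KS1, had 7.74, 7.84 and 7.80 in *Osrdr1* and 8.08, 8.13 and 7.77 in WT, a difference of -0.20 (adjusted p = 0.505 from limma). The genotypes overlapped through the WT replicate 3, without which the difference was -0.31 (adjusted p = 0.0929 from limma). The dimmer probe set of KO2 had 7.40, 7.61 and 7.60 in *Osrdr1* and 7.63, 7.79 and 7.66 in WT, without overlap, a difference of -0.16 (adjusted p = 0.53 from limma). Of all probe sets, 8.83% lay without overlap in this direction. Both KO2 probe sets end in _x_at, which marks probes that may bind other transcripts, so they may not read KO2 alone. The differences of KAO, the kaurenoic acid oxidase, and of the late-acting gibberellin oxidases GA20ox2 and GA20ox3 were 0.07, 0.16 and 0.10. KO5, a relative of KO2, had a difference of 0.01. EUI1, a P450 that inactivates gibberellins, had a difference of -0.16 and lay below the middle of all arrays. It was the 1 measured of 3 listed genes of inactivation, and the GA2ox genes, also planned for that list, were not matched by name.

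Of 5 measured genes of gibberellin signalling, 0 were called, and all 5 differences were positive, with a median of 0.17. GID1, the gibberellin receptor, had 10.06, 10.05 and 10.25 in *Osrdr1* and 9.83, 9.69 and 9.81 in WT. The difference was 0.34 with a standard error of 0.09 (adjusted p = 0.111 from limma). This brighter probe set was called with a trended and robust variance, with array weights and with 1 probe set per gene (adjusted p = 0.0425, 0.0347 and 0.0457 from limma). The dimmer probe set of GID1 lay within the range of the Tag probe sets and had a difference of -0.08 (adjusted p = 0.82 from limma). The DELLA repressor SLR1 differed by 0.17, its relative SLRL1 by 0.13, the transcription factor GAMYB by 0.24 (adjusted p = 0.288 from limma) and the repressor SPY by 0.04.

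All 10 genes of phytoalexin synthesis after the cyclases were measured, and 0 were called, with 7 positive and 3 negative differences and a median of 0.08. Of these 10, 6 lay below the middle of all arrays. CYP76M8, which hydroxylates several of the ent-diterpenes, was a brighter one, with 7.34, 7.39 and 7.32 in *Osrdr1* and 7.17, 7.43 and 7.04 in WT, a difference of 0.13 (adjusted p = 0.671 from limma). Its probe set ends in _x_at, which marks probes that may bind other transcripts, and related CYP76M genes lie beside it. CYP76M5 of the same family differed by 0.14, and CYP71Z7, which acts on phytocassanes, by 0.08. CYP99A2 and CYP99A3 differed by -0.08 and 0.09. CYP701A8, which belongs to the kaurene oxidase family but hydroxylates phytoalexin precursors, had a difference of 0.16 that turned to -0.09 without the WT replicate 3, where its value was 4.84 against 5.27 to 5.64 on the other arrays.

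Among 5 measured genes known to regulate this branch, 0 were called. The regulators TGAP1, DPF, WRKY45, WRKY53 and MKK4, also planned for this list, were not matched by name, so the count does not cover them. The median difference was -0.05, and WRKY62 and WRKY76, repressors of defence genes, had differences of -0.30 and -0.18. Both lay within the range of the Tag probe sets, and the difference of WRKY62 was -0.12 without the *Osrdr1* replicate 2 and -0.54 without the *Osrdr1* replicate 3. The chitin receptor kinase CERK1 and the kinases MPK3 and MPK6 had -0.03, 0.05 and -0.05.

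**Figure D4:**
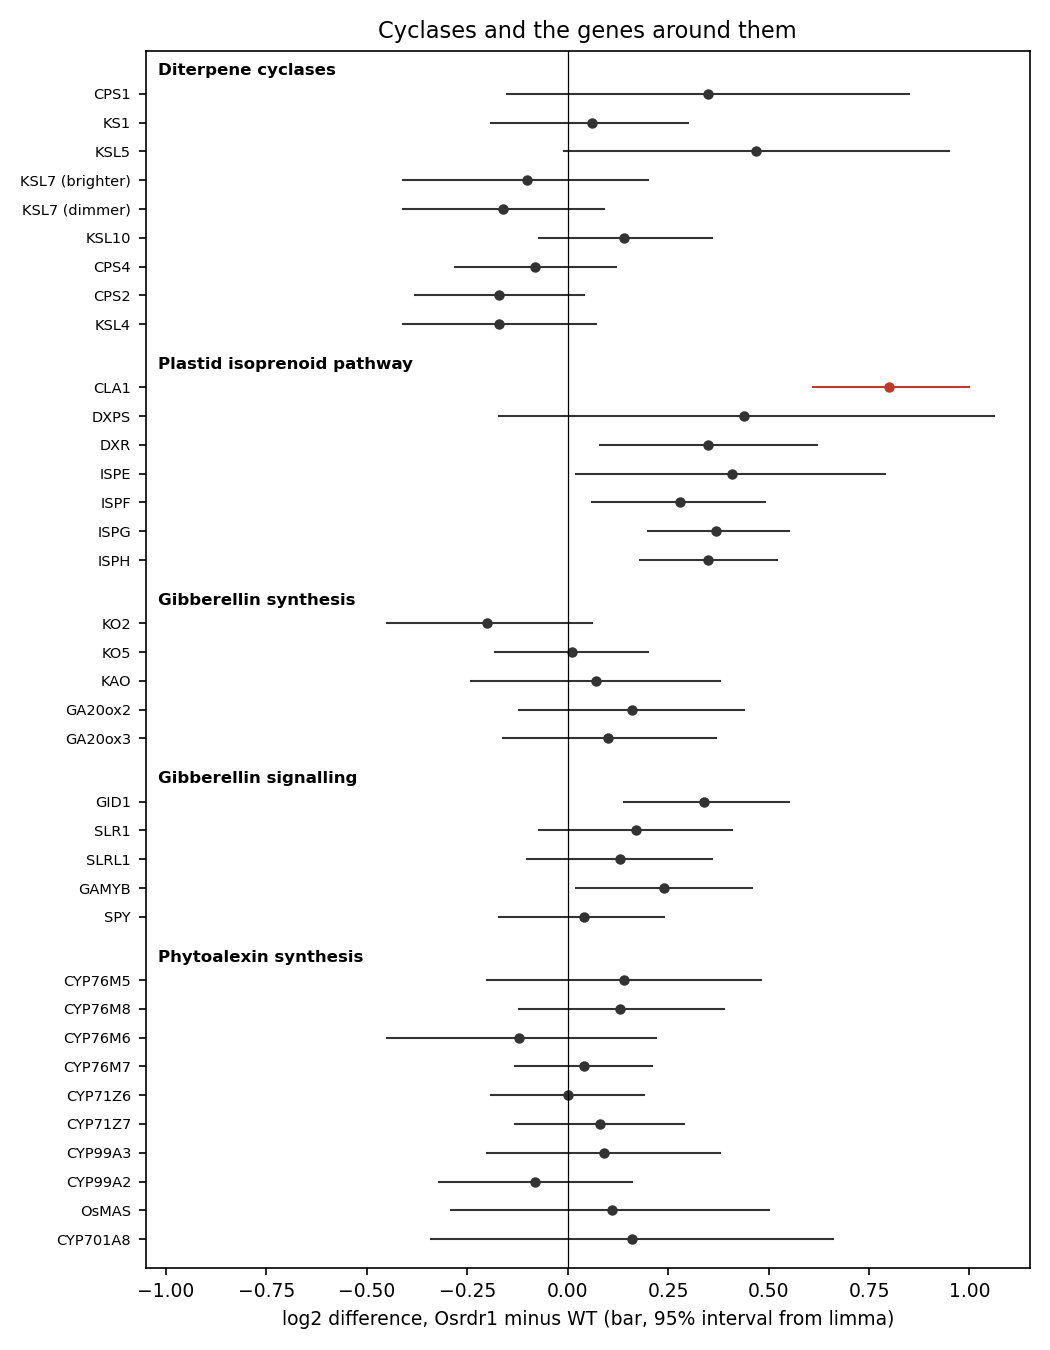
Difference between the genotypes (log2, *Osrdr1* minus WT, horizontal axis) with its 95% interval from limma for the cyclases, the plastid pathway that supplies their precursor, and the genes of gibberellin synthesis, gibberellin signalling and phytoalexin synthesis. CLA1, in red, is the single gene shown that passed the test, and the cyclase points lie between -0.17 and 0.47.

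The plastid isoprenoid pathway, which supplies the precursor of the cyclases, held 1 called gene. GGPPS, planned for this list, was not matched by name. CLA1, a synthase of 1-deoxy-D-xylulose 5-phosphate at the entry of the pathway, had 9.48, 9.65 and 9.70 in *Osrdr1* and 8.83, 8.76 and 8.83 in WT. The lowest *Osrdr1* array was well above the highest WT array, and CLA1 rose by 0.80 with a standard error of 0.08 (adjusted p = 0.0115 from limma). The dimmer probe set of CLA1 had a difference of 0.21 (adjusted p = 0.379 from limma). All 7 measured genes of the pathway had positive differences, with a median of 0.37, and 6 had an unadjusted p under 0.05, where 16.4% of all genes were higher at that level. ISPG and ISPH, which carry out the last steps, had 0.37 and 0.35 (adjusted p = 0.0584 and 0.0621 from limma), and DXR, the reductoisomerase, had 0.35 (adjusted p = 0.207 from limma). The count of called genes became 3 of 7, with ISPG and ISPH added, under the filter on dim probe sets, the trended and robust variance or 1 probe set per gene, and 5 of 7 with array weights, with DXR and ISPF added as well.

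Phytoene synthase draws on the same precursor for carotenoids. Of its 3 genes, 2 were called higher. PSY1 had 10.05, 10.05 and 10.03 in *Osrdr1* and 9.31, 9.34 and 9.34 in WT, and it rose by 0.71 (adjusted p = 0.0109 from limma). The name of this probe set ends in _s_at, which marks probes shared by several transcripts. The next brightest probe set of PSY1 had 0.67 and the dimmest 0.14 (adjusted p = 0.0321 and 0.585 from limma). PSY2 had 11.08, 11.23 and 11.19 in *Osrdr1* and 10.35, 10.09 and 10.37 in WT, and it rose by 0.90 (adjusted p = 0.0128 from limma), while PSY3 had a difference of 0.41 (adjusted p = 0.226 from limma). The calls of CLA1, PSY1 and PSY2 were each lost without the *Osrdr1* replicate 1, the *Osrdr1* replicate 3 or the WT replicate 1, with adjusted p-values of 0.0594 to 0.0944 from limma, and in these fits 0, 0 and 1 of all probe sets were called. That of CLA1 was also lost without the *Osrdr1* replicate 2 or the WT replicate 2 (adjusted p = 0.0548 and 0.053 from limma), and that of PSY2 without the *Osrdr1* replicate 2 (adjusted p = 0.0604 from limma). Their differences stayed between 0.70 and 0.95 in all these fits. Whether the rise of these genes differs from the change of any cyclase was not tested.

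Some markers of meristem and green leaf also differed between the genotypes. All 4 measured of 5 shoot meristem markers of the knotted class had negative differences, with a median of -1.61, and their summed log2 value was 17.8 to 22.1 in *Osrdr1* and 23.48 to 27.74 in WT. OSH71 was called lower at -2.43 (adjusted p = 0.0457 from limma). By their brightest probe sets, OSH1, OSH6 and OSH43 had -2.48, -0.78 and -0.17 and were not called (adjusted p = 0.162, 0.101 and 0.463 from limma). For OSH1 the genotypes overlapped in this probe set, and its dimmer one had -1.83 (adjusted p = 0.0617 from limma). OSH43 lay within the range of the Tag probe sets. Both measured of 3 green leaf markers had positive differences, with a summed value of 27.77 to 27.83 in *Osrdr1* and 26.75 to 27.20 in WT. The Rubisco small subunit OsrbcS rose by 0.52 (adjusted p = 0.0412 from limma), while CAB2R, at 0.24, was not called (adjusted p = 0.235 from limma). This OsrbcS probe set ends in _x_at, which marks probes that may bind other transcripts. The dimmer ones of OsrbcS had 0.67, 0.62 and 0.15 (adjusted p = 0.0467, 0.0654 and 0.629 from limma). Of 5 measured among 6 seed storage markers, 4 lay below the middle of all arrays. The differences of the list were 1 positive and 4 negative, with a median of -0.01. The positive one, GLUA2, was called higher by 0.70 through its brighter probe set, while its dimmer one had -0.11. The summed value of the list was 21.38 to 22.17 in *Osrdr1* and 20.97 to 21.91 in WT. In such whole tissue, fewer cells of a type and less RNA per cell cannot be told apart, and the part of the mix of tissues in the values above was not tested.

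The WT replicate 2 stood apart in PBZ1 and in the low-oxygen markers PDC1 and Adh2. PBZ1, a pathogenesis-related protein induced with phytoalexins, had 9.45, 9.32 and 9.63 in *Osrdr1* and 8.85, 11.51 and 8.31 in WT. This array was the highest, and it was also highest for the low-oxygen markers PDC1, a pyruvate decarboxylase, at 8.55 against 3.74 to 4.13 elsewhere, and Adh2, an alcohol dehydrogenase, at 9.36 against 6.23 to 7.40. The remaining measured marker, PDC2, had 12.32 there, near the 12.25 and 12.04 of the other WT arrays, and a difference of -0.30 (adjusted p = 0.168 from limma). The 3 measured of 4 low-oxygen markers summed to 21.88 to 23.25 in *Osrdr1* and 22.43 to 30.23 in WT. All 3 differences were negative, and 0 were called. On the WT replicate 2, 0 of the 9 cyclase probe sets had their highest value and 0 their lowest. OsMAS had its highest value there, 5.44 against 4.77 to 5.16 on the other arrays. The difference of PBZ1 was -0.09 with all arrays and 0.88 without the WT replicate 2. Of 11 measured pathogenesis-related genes 0 were called, with a median difference of 0.02, and 6 of the 11 had their highest value on the WT replicate 2. How many of all probe sets had their highest or lowest value on that array was not counted, so these counts have no share to be set against. The chitinases Cht4 and Cht6 had differences of 0.60 and 1.10 (adjusted p = 0.0527 and 0.071 from limma). Cht4 lay below the middle of all arrays and within the range of the Tag probe sets. Both were called with the trended and robust variance (adjusted p = 0.0209 and 0.0318 from limma) and with 1 probe set per gene (adjusted p = 0.0262 and 0.0389 from limma). Array weights called Cht4 but not Cht6 (adjusted p = 0.00961 and 0.0765 from limma). Cht4 was also called without the *Osrdr1* replicate 2 (adjusted p = 0.047 from limma). The filter on dim probe sets called Cht6 (adjusted p = 0.0492 from limma) and gave no value for Cht4. The other fits called neither.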

How the data were processed

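Per the labels, biotin-labelled cRNA of 1 biological replicate went on each array. The deposited log2 values were made by the authors with RMA in Affymetrix Expression Console (version not given in the sources used here), which corrects background, equalizes quantiles and summarizes probes. *OsRDR1* was not matched to a probe set, so the genotype labels were not checked.

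After 123 controls were left out, a model with genotype alone was fitted to 57258 probe sets (R 4.3.3; limma 3.58.1, functions lmFit and eBayes, with 4 residual and 3.32 prior degrees of freedom), and probe sets were called at a Benjamini-Hochberg adjusted p under 0.05. Tables and plots used pandas 2.3.3, numpy 2.4.6 and matplotlib 3.10.9 under Python 3.11.15. The fit was tested on simulated data with 57258 probe sets, 200 of them changed: it made 195 calls, of which 6.7% were false, and found 83% of changes by 1 log2 unit and 99% of those by 2. The simulated noise was independent and normal, with variances drawn from the fitted model and no differences in quality between arrays. Changes as small as those of the cyclases were not simulated, so these shares do not apply to them.

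Of the probe sets tested, 22436 had 1 gene, and the brightest stood for each of 17905 genes. The members and lists were chosen with earlier results of these data known. The text names every member, the neighbours at the ends of the range and next to members, the called genes and the smallest p-values of each list and other key genes of these pathways. CYP76M7 is placed by the table on chromosome 6, apart from the other CYP76M genes, so its match is in doubt, and it is counted and plotted with its list only. PBZ1, PDC1, Adh2 and the ribosomal RNA values by array were chosen after their values were seen. Synonyms such as OsKS3, OsKS5 and OsKS6 belong to more than 1 KSL gene in the table, and the symbols decided. Gene order came from that table, and no coordinates or sequences are printed. With 3 arrays per genotype, their number limits the precision.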

Additional observations from a re-analysis of the deposited data

How the results depend on the processing

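No cyclase was called with arrays centred on the median, quantiles equalized again, a trended and robust variance, each array left out, the brightest probe set per gene, or the replicate block. With array weights 1 was called, KSL5, and 1 gene of the neighbourhoods, LOC4336957. A filter on dim probe sets left CPS1, KS1 and KSL5, and gave no value for the others. Over all probe sets, 1981 were called with that filter, 2696 with the trended and robust variance, 3743 with array weights, 2067 with 1 probe set per gene, 144 at the minimum of 2-fold and 0 with the replicate number as a block, beside 1191. Leaving out 1 array gave 0 to 1220. The 3 calls among the pathway genes became 6 with the dim filter, 8 with the trended and robust variance, 9 with array weights, 8 with 1 probe set per gene (an alternative chosen after seeing the data, which added ISPG, ISPH, GID1, Cht4 and Cht6), 0 with the replicate block and 0 to 4 with 1 array left out. The split of calls was 901 higher and 290 lower, 1041 and 180 after median centring, and 963 and 626 with quantiles equalized again. The causes were not tested. Arrays with the same replicate number did not deviate together (correlations 0.138, -0.147 and -0.271), so the number was not taken as a pairing.

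Signs turned for differences near 0. CYP71Z6, at -0.00, became 0.03 with median centring, 0.02 with quantiles equalized again and 0.05 with array weights. With array weights KAO became -0.01, CYP71Z7 -0.00 and OsMAS -0.08. With 1 array left out, KS1 ran from -0.03 to 0.12, KAO from -0.07 to 0.16, CYP99A3 from -0.01 to 0.17, CYP71Z6 from -0.05 to 0.04, MPK3 from -0.05 to 0.21, CYP76M5 from -0.03 to 0.23, OsMAS from -0.02 to 0.32 and CYP701A8 from -0.09 to 0.29. Without detection calls, values near the bottom of the scale limit what can be seen of the phytoalexin cyclases.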
